A study of Mus musculus with 12 samples.

Results

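The ADAM, ADAMTS and ADAMTS-like genes encode a family of zinc metalloproteinases and their non-catalytic relatives. Members were taken by name from the table of gene counts of mouse 4T1 breast tumours: every protein-coding gene whose symbol is Adam, Adamts or Adamtsl followed by a number. The rule found 58 of 57186 genes, of which 34 are ADAM, 19 ADAMTS and 5 ADAMTS-like genes. The rule itself holds no measured value, but the family was chosen by an earlier view of the log2 fold changes between the same tumours, those of Adamtsl3 and Adam12 among them. The values of these 2 genes are therefore given as a description without a p-value, and no count of members is offered as evidence about the family.

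ADAMs are membrane proteins of the cell surface that cut the outer parts of other membrane proteins, releasing growth factors, cytokines and adhesion molecules in a process called shedding. ADAMTS proteases are secreted, carry thrombospondin repeats and act on the extracellular matrix, where they trim procollagens and degrade large proteoglycans such as versican and aggrecan. ADAMTS-like proteins share the repeats but lack the protease domain, and several bind fibrillin microfibrils.

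All 12 tumours grew from 4T1 cells, a transplantable mammary carcinoma line of the mouse. In 6 tumours, labelled WT, the cells were the parental wild-type line. In the other 6, labelled Tn, the Cosmc gene (C1galt1c1), whose product folds the enzyme that lengthens O-linked sugar chains, had been silenced with CRISPR/Cas9, so that cells carry the short Tn antigen. The labels used here give no mouse strain, age, time of collection or clonal origin of the silenced cells, and since they do not say how tumours relate to animals, the p-values measure the spread between these tumours. Poly(A) RNA of whole tumours was sequenced to between 113575859 and 156880766 counts per tumour. C1galt1c1 measured 19.6 ± 3.05 CPM in the WT group and 11.3 ± 0.775 CPM in the Tn group, with every Tn tumour below every WT tumour. Carcinoma keratins were high in both groups (Krt8 at 1147 ± 269 CPM and 1001 ± 233 CPM). Libraries that stood apart were WT 6, with the highest adipocyte markers of its group, Tn 4, whose summed B cell markers reached 579 CPM against 2.25 CPM at the median of its group, and Tn 6, with 3488 CPM of keratinocyte markers. Calls of members, and counts of the gene lists, that change without these 3 libraries are given both ways. Levels are TMM-scaled CPM, that is, counts relative to the library total times its TMM factor, and a value with ± is the mean and SD over the 6 tumours of a group unless marked SE. A gene is said to have risen or fallen in Tn when its edgeR p-value, adjusted over all 19255 genes tested, is under 0.05.

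The protease activity rests on a zinc site, in which 3 histidines hold the metal and a glutamate takes part in the cut. The coding sequence of each member's canonical transcript in the GRCm39 annotation was searched for histidine, glutamate, any 2 residues, histidine, any 2 residues, then glycine, asparagine or serine, any 2 residues and histidine. That site was present in 21 of 34 ADAM, 19 of 19 ADAMTS and 0 of 5 ADAMTS-like genes. Asparagine and serine were admitted at codon 8 after the sequences had been seen. The 12 sites below belong to members that carry the results. Each runs 5′ to 3′ on the coding strand, and capitals mark the codons of the 3 histidines, the glutamate and codon 8.
Adam10: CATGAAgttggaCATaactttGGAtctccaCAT
Adam17: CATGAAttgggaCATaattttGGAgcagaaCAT
Adam9: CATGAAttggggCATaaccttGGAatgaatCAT
Adam12: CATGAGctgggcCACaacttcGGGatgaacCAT
Adam15: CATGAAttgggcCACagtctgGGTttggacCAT
Adam19: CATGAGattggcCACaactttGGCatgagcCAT
Adamts1: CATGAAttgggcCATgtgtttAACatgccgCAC
Adamts4: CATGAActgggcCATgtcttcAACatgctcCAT
Adamts8: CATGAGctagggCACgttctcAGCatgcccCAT
Adamts5: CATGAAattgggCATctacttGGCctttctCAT
Adamts2: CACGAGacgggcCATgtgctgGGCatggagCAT
Adamts12: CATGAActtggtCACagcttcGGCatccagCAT
Codon 8 encodes glycine in all 21 ADAM sites. Among ADAMTS genes it encodes glycine in 13, asparagine in 5 (Adamts1, Adamts4, Adamts9, Adamts15 and Adamts20) and serine in 1 (Adamts8). In the genome, Adam9's site lies in a single exon at chr8:25480342-25480374 of GRCm39 and Adam12's at chr7:133562887-133562919, both on the minus strand. The site of Adamts8, at chr9:30864017-30864674 on the plus strand, is divided by an intron, as in the 18 other ADAMTS genes, whereas 20 of the 21 ADAM sites lie in 1 exon, Adam10 being the exception. The 13 ADAM genes without the site include Adam11, Adam22 and Adam23 of the nervous system, and Adam2 and Adam3 of sperm.

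Of the 58 members, 39 had counts high enough to be tested, 19 did not, and 10 of the latter had no count in any tumour. Adamtsl3 and Adam12, both lower in Tn tumours, are left out of the counts of calls below. Leaving them out does not make the other 37 independent of the earlier view by which the family was chosen. The counts, medians and shares below are therefore description only. Among the other 37, 16 fell in Tn tumours, 3 rose and 18 did not pass, so 19 were called against 36.8% of all genes tested. In all genes, 17.4% fell and 19.5% rose. Without the 3 libraries that stood apart, 15 of the members fell and 2 rose, beside 14.2% and 16.9% of all genes. The median log2 fold change of the 37 was -0.46, beside 0.01 over all genes tested, and it was -0.29 for the ADAM, -0.86 for the ADAMTS and -0.70 for the ADAMTS-like genes. Of 16 ADAM genes tested, 4 fell and 3 rose; of 17 ADAMTS genes, 11 fell and 0 rose; of 4 ADAMTS-like genes, 1 fell and 0 rose. By limma voom, 19 members fell and 4 rose, and by DESeq2 16 fell and 3 rose. No ADAMTS gene rose by these tools either. Of the ADAMTS-like genes, 1 (Adamtsl4) rose by voom and 0 by DESeq2, while 2 fell by voom and 1 by DESeq2. At an unadjusted edgeR p under 0.05, 1 gene of each of these subfamilies, Adamts14 and again Adamtsl4, was higher in Tn. In 7 of the 37, every Tn tumour lay below every WT tumour, an arrangement found in 8.35% of all genes tested, and in 0 did every Tn tumour lie above, against 8.81% of all genes.

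Summed over members, ADAM genes measured 960 ± 76.1 CPM (SD, n = 6) in WT tumours and 900.2 ± 87.0 CPM in Tn tumours, and their ranges overlapped. ADAMTS genes summed to 585 ± 69.7 CPM in WT tumours and 314 ± 36.2 CPM in Tn tumours. The lowest WT tumour, at 472 CPM, was above the highest Tn tumour, at 378 CPM. ADAMTS-like genes summed to 82.2 ± 12.1 CPM and 21.8 ± 4.57 CPM. Without Adamtsl3 these sums were 25.6 ± 2.84 and 21.5 ± 4.77 CPM and overlapped, so the gap between the groups in the ADAMTS-like sum was that of 1 gene. In tumours measured whole, fewer cells of a type and less RNA per cell cannot be told apart.

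**Figure D1:**
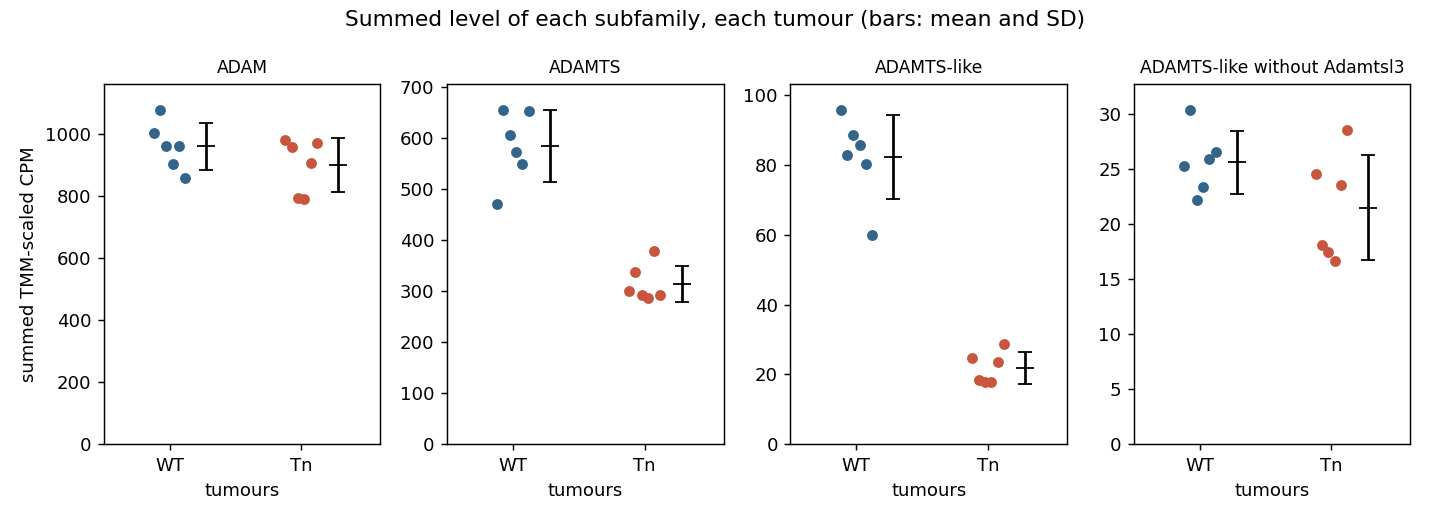
Summed TMM-scaled CPM of each subfamily (vertical axes, from 0) in each of 6 WT and 6 Tn tumours (points), with the mean and SD of each group as black bars. ADAMTS sums separate the groups (472 to 655 CPM in WT, 287 to 378 CPM in Tn), ADAM sums overlap, and the ADAMTS-like groups overlap once Adamtsl3 is left out.

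Several cell type markers moved in the same direction as the ADAMTS genes. Of 8 fibroblast markers 7 fell and 1 (Pdgfra) rose, with a summed level of 6150 to 15091 CPM in WT tumours and 2548 to 3908 CPM in Tn tumours. Of 8 pericyte and smooth muscle markers 7 fell and 0 rose (424 to 789.6 CPM summed in WT, 127 to 352 CPM in Tn), and of 7 endothelial markers 5 fell and 0 rose (291 to 506 CPM in WT, 202 to 401 CPM in Tn). Macrophage markers rose in 4 of 6 genes (617 to 939.8 CPM in WT, 900.1 to 2672 CPM in Tn) and T cell markers in 6 of 6 (6.46 to 20.2 CPM in WT, 43.2 to 363 CPM in Tn). Carcinoma epithelium markers fell in 2 of 7 genes (Krt19 and Cldn3), and of the other lists 1 of 5 adipocyte and 1 of 5 Schwann cell genes fell. Each count of markers stands beside 17.4% of all genes tested that fell and 19.5% that rose, and 1 of 5 is near that share. B cell markers rose in 3 of 3 tested, and most of their counts were in 1 library. Tn 4 held 167 CPM of Cd79a, 147 CPM of Cd79b and 77.7 CPM of Pax5, where the other 5 Tn tumours held 0.200 to 1.67, 0.448 to 1.29 and 0.0891 to 0.660 CPM. Of 4 keratinocyte genes 1, Krt16, rose by the test, at 552 CPM in Tn 6 and 0.426 to 1.21 CPM in the other 5 Tn tumours, which is below the WT mean of 2.17 CPM. Of 5 neutrophil and 5 skeletal muscle genes 0 passed, also at an unadjusted edgeR p under 0.05. Without the 3 libraries, 2 of 3 B cell genes rose, Krt16 fell, 4 of 5 neutrophil and 3 of 7 endothelial genes fell, 0 Schwann cell genes passed, and the counts of the other lists named here stayed as they were. WT 1 had the lowest summed level of fibroblast, pericyte and endothelial markers among the WT tumours. The part of these markers in the results below was not tested.

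**Figure D2:**
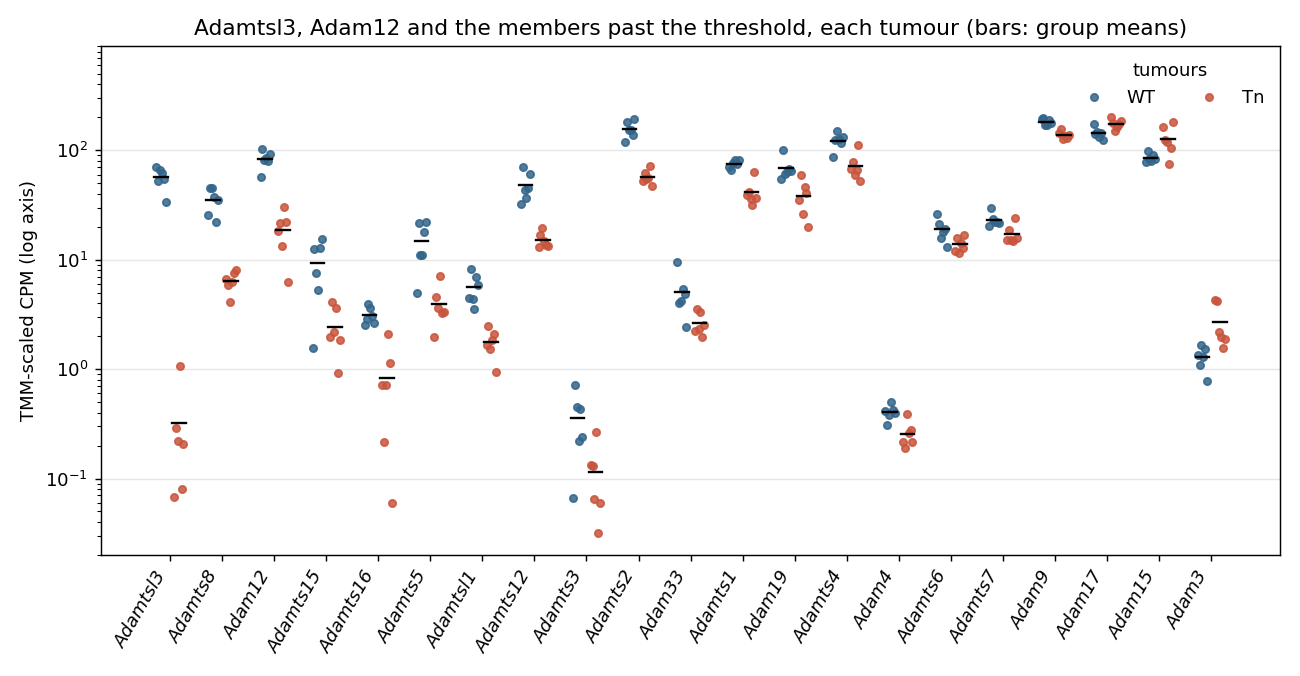
TMM-scaled CPM (vertical log axis) of Adamtsl3, Adam12 and the 19 other members past the threshold in each WT (blue) and Tn (red) tumour, with group means as black bars, ordered from the largest fall to the largest rise. Adamtsl3 lies between 33.4 and 70.4 CPM in WT tumours and at or under 1.07 CPM in Tn tumours.

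Among the sheddases, the ADAMs that cut cell-surface proteins, 3 of the 7 tested besides Adam12 fell (Adam9, Adam19 and Adam33), 2 rose (Adam17 and Adam15) and 2 did not pass (Adam10 and Adam8). Here and below, each count in a group of members by role stands beside 17.4% of all genes tested that fell and 19.5% that rose. Adam12, an ADAM of mesenchymal cells that releases heparin-binding EGF and cleaves insulin-like growth factor binding proteins, measured 56.9, 102, 82.3, 84.7, 79.5 and 92.6 CPM in WT tumours 1 to 6 and 18.5, 21.8, 13.5, 30.3, 22.2 and 6.30 CPM in Tn tumours 1 to 6. The highest Tn tumour was thus below the lowest WT tumour, and Tn 6 was the lowest of all. A log2 fold change of -2.15 ± 0.30 (SE) left 22.6% of the WT mean.

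Adam9, a widely expressed sheddase, ranged over 170.4 to 199 CPM (median 182) in WT and 128 to 157 CPM (median 137) in Tn tumours. The groups did not overlap although the change was small, with a log2 fold change of -0.40 ± 0.06 (SE) and adjusted p = 6.19e-04. The coefficient of variation of Adam9 within groups was 6.58% and 7.5%, the lowest of any member in both groups. Adam19, a meltrin family member known from heart development and the cleavage of neuregulin, measured 54.1 to 100.5 CPM (median 64.2) in WT and 20.0 to 59.5 CPM (median 37.9) in Tn tumours, and the groups overlapped. Its log2 fold change was -0.85 ± 0.24 (SE, adjusted p = 0.0157), and 15.9% of its exon bases are shared with 2 antisense genes. For Adam33, a gene of airway smooth muscle and fibroblasts, values ran over 2.43 to 9.48 CPM (median 4.54) in WT and 1.95 to 3.57 CPM (median 2.42) in Tn tumours, with overlapping groups and a log2 fold change of -0.94 ± 0.28 (SE, adjusted p = 0.0209).

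Adam17, the enzyme that releases tumour necrosis factor and several EGF receptor ligands, ranged over 123 to 173 CPM (median 143) in WT and 149 to 203 CPM (median 176) in Tn tumours. The rise was 1.22-fold, with a log2 fold change of 0.29 ± 0.09 (SE, adjusted p = 0.0256), and the groups overlapped. The call was lost without WT 4, WT 6 or Tn 1 and without the 3 libraries that stood apart (log2 fold change 0.27), with adjusted p up to 0.0782 over all alternatives. Of Adam17's exon bases, 17.2% are shared with the antisense gene Iah1. Adam15, an adhesion-related ADAM of epithelium and endothelium, measured 78.7 to 99.3 CPM (median 83.4) in WT and 75.6 to 181 CPM (median 122) in Tn tumours, where Tn 4 was below every WT tumour and the other 5 were above every one. The fit gave a log2 fold change of 0.57 ± 0.17 (SE, adjusted p = 0.0210). Of Adam15's exon bases, 86.1% are shared with an antisense gene, so its level is uncertain.

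Adam10, the sheddase that makes the first cut of Notch receptors, ranged over 246 to 313 CPM (median 272) in WT and 233 to 296 CPM (median 252) in Tn tumours. Its log2 fold change was -0.08 ± 0.08 (SE, adjusted p = 0.455), and the groups overlapped. Adam8, an ADAM of myeloid cells, neutrophils and invasive carcinoma cells, ran over 57.7 to 144 CPM (median 106) in WT and 88.0 to 158 CPM (median 141) in Tn tumours (log2 fold change 0.31 ± 0.21 (SE), adjusted p = 0.258). Adam28, of lymphocytes and epididymis, was too low to be tested, with at most 0.224 CPM (Tn 5) in any tumour.

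The 3 catalytically inactive ADAMs of the nervous system, which bind LGI proteins at synapses, were measurable, and 0 rose or fell by edgeR, also at an unadjusted p under 0.05. DESeq2 called 0 and limma voom called 1, Adam23, as lower. The highest of these per length, Adam11, measured 2.25 ± 0.307 CPM in the WT and 1.98 ± 0.206 CPM in the Tn group (adjusted p = 0.310). Adam23 measured 1.80, 4.32, 3.93, 3.17, 4.97 and 5.80 CPM in WT tumours 1 to 6 and 1.07, 1.19, 1.00, 7.08, 0.544 and 2.07 CPM in Tn tumours 1 to 6. Tn 4 was the highest of all 12, and the other 5 Tn tumours were within or below the WT range. The log2 fold change was -0.89 ± 0.56 (SE, adjusted p = 0.229) with all tumours and -1.91 without the 3 libraries, where the adjusted p was 0.00237.

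Of the 22 ADAMs of the male germ line and their relatives, 6 were tested, 1 rose and 1 fell, and 10 had no count in any tumour. The calls were near the shares of all genes tested, 17.4% that fell and 19.5% that rose. Adam3, which encodes a sperm surface protein needed for passage through the oviduct, measured 1.34, 1.09, 1.68, 1.28, 1.52 and 0.781 CPM in WT tumours 1 to 6 and 4.31, 4.22, 2.19, 1.97, 1.55 and 1.90 CPM in Tn tumours 1 to 6. Tn 1 and Tn 2 were more than 2-fold above every WT tumour, while Tn 5 lay within the WT range. Its log2 fold change was 1.07 ± 0.29 (SE, adjusted p = 0.0130), and 27.1% of its exon bases are shared with the antisense gene Gm45528. Of 5 germ cell markers, Tnp1 was at 0 in all tumours and the summed level did not exceed 0.414 CPM in any tumour, while Prm1, the 1 marker tested, rose (log2 fold change 2.16 ± 0.77 (SE), adjusted p = 0.0445), a call lost without the 3 libraries (adjusted p = 0.110). Adam4, a testis gene that lies within the span of Cox16 on the same strand, measured 0.403 ± 0.0634 CPM in the WT and 0.258 ± 0.0704 CPM in the Tn group. Adam4 had a log2 fold change of -0.65 ± 0.21 (SE, adjusted p = 0.0303), and the call was lost in 10 of 19 alternatives, among them leaving out WT 1, WT 4, WT 5, Tn 1, Tn 2, Tn 4 or Tn 6, and leaving out the 3 libraries together (log2 fold change -0.58, adjusted p = 0.133). Adam6a and Adam6b lie inside the immunoglobulin heavy chain locus on chromosome 12. Adam6a had no count, and Adam6b had 8 counts, all in Tn 4, the library with the highest B cell markers.

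Of the 7 ADAMTS proteoglycanases, the enzymes that degrade versican and aggrecan, 5 fell, 0 rose and 2 did not pass. Adamts8 had the largest fall of all ADAMTS genes tested. It measured 25.5, 45.4, 45.6, 37.8, 22 and 35.5 CPM in WT tumours 1 to 6 and 6.71, 5.88, 4.08, 6.20, 7.56 and 8.0 CPM in Tn tumours 1 to 6. The lowest WT tumour was above 2 times the highest Tn tumour. The log2 fold change was -2.46 ± 0.21 (SE, adjusted p = 1.86e-05), a 5.51-fold fall, and 21.2% of its exon bases are shared with an antisense gene. Adamts5, the main aggrecanase of mouse cartilage, ranged over 4.96 to 22.1 CPM (median 14.6) in WT and 1.96 to 7.03 CPM (median 3.50) in Tn tumours. Only WT 1 fell within the Tn range, and the log2 fold change was -1.90 ± 0.38 (SE, adjusted p = 0.00227).

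Adamts1, a secreted protease with anti-angiogenic activity that cleaves versican, measured 70.6, 66.3, 77.2, 81.5, 74.5 and 81.7 CPM in WT tumours 1 to 6 and 38.9, 41.9, 35.8, 31.9, 63.1 and 36.8 CPM in Tn tumours 1 to 6. The groups did not overlap, although Tn 5 came within a few CPM of the lowest WT tumour. This was a log2 fold change of -0.86 ± 0.14 (SE, adjusted p = 7.50e-04). Adamts4, an aggrecanase and the ADAMTS gene with the highest level per length, ranged over 87.4 to 149 CPM (median 126) in WT and 52.3 to 111 CPM (median 66.9) in Tn tumours. The single Tn tumour within the WT range was Tn 5, the one in which Adamts1 was also highest. Adamts4 had a log2 fold change of -0.76 ± 0.17 (SE, adjusted p = 0.00496). Adamts15 ran over 1.55 to 15.5 CPM (median 10.1) in WT and 0.928 to 4.14 CPM (median 2.09) in Tn tumours, with WT 1 far below the other WT tumours, as for Adamts5 (log2 fold change -1.92 ± 0.50 (SE), adjusted p = 0.0104). Adamts9, which also acts at the base of cilia, measured 36.4 ± 2.68 CPM in the WT and 30.3 ± 11.1 CPM in the Tn group (adjusted p = 0.310), and 17% of its exon bases are shared with antisense genes. Adamts20, a gene of melanoblast migration, was at or under 0.279 CPM in 11 of the 12 tumours and at 1.07 CPM in Tn 4 (adjusted p = 0.656).

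Neighbouring members moved alike in 2 places. Adamts1 and Adamts5, both on the minus strand of chromosome 16, lie 53.1 kb apart with no protein-coding gene between them, and both fell. Adamts15 and Adamts8, on opposite strands of chromosome 9, lie 20.1 kb apart with no protein-coding gene between them, and both fell. On chromosome 8, by contrast, Adam3 and Adam9 stand in a run of 5 ADAM genes on the minus strand, and Adam3 rose while Adam9 fell. Adam5 and Adam32, which lie between them, did not pass (log2 fold changes -0.05 ± 0.60 (SE) and 0.19 ± 0.37 (SE)).

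Of the 3 procollagen N-proteinases, which remove the amino-terminal propeptides of fibrillar procollagens, 2 fell and 1 did not pass. Adamts2, whose loss causes dermatosparaxis, measured 118, 183, 153, 154, 139 and 193 CPM in WT tumours 1 to 6 and 52.9, 62.0, 54.9, 56.1, 71.9 and 47.3 CPM in Tn tumours 1 to 6. All Tn tumours were below all WT tumours. Its log2 fold change was -1.45 ± 0.13 (SE, adjusted p = 2.04e-05), leaving 36.7% of the WT mean. Adamts14, which shares this activity, ran over 25.7 to 34.8 CPM (median 28.4) in WT and 25.6 to 56.9 CPM (median 35.9) in Tn tumours and did not pass (log2 fold change 0.39 ± 0.17 (SE), adjusted p = 0.0896). Adamts3, which activates VEGF-C for lymphatic growth, was under 1 CPM in every tumour, at 0.355 ± 0.228 CPM in the WT and 0.115 ± 0.0849 CPM in the Tn group. Adamts3 had a log2 fold change of -1.61 ± 0.56 (SE, adjusted p = 0.0402), and the call was lost in 10 of 19 alternatives, among them leaving out WT 2, WT 3, WT 5, Tn 1, Tn 2, Tn 3, Tn 5 or Tn 6.

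Adamts12 and Adamts7, grouped here by their cleavage of cartilage oligomeric matrix protein, fell. Adamts12, a fibroblast protease, measured 32.6, 70.0, 43.6, 36.3, 45.2 and 60.9 CPM in WT tumours 1 to 6 and 13.1, 16.7, 19.7, 14.9, 13.6 and 13.3 CPM in Tn tumours 1 to 6. The groups did not overlap, and Tn tumours were close to each other, with a coefficient of variation of 16.8% against 30.1% in WT. The log2 fold change was -1.66 ± 0.19 (SE, adjusted p = 8.24e-05). Adamts7, a gene of vascular smooth muscle, ranged over 20.5 to 29.6 CPM (median 22.1) in WT and 14.7 to 23.9 CPM (median 15.5) in Tn tumours. The log2 fold change was -0.44 ± 0.13 (SE, adjusted p = 0.0221). That call was lost without WT 2, Tn 1 or Tn 4, and without the 3 libraries, where the log2 fold change was -0.36.

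Of the 7 other ADAMTS genes, 5 were tested, 2 fell and 0 rose. Adamts16, a gene of kidney and gonad, measured 2.51, 2.86, 3.91, 3.59, 3.06 and 2.65 CPM in WT tumours 1 to 6 and 0.718, 0.215, 0.722, 2.1, 1.14 and 0.0594 CPM in Tn tumours 1 to 6. The Tn tumours varied far more among themselves than the WT tumours did, yet all were below the lowest WT tumour. Adamts16 had a log2 fold change of -1.91 ± 0.60 (SE, adjusted p = 0.0251), it was -2.18 without the 3 libraries, and the call was lost without Tn 1. Adamts6, a regulator of fibrillin microfibrils, ran over 13.2 to 26.4 CPM (median 18.7) in WT and 11.5 to 16.7 CPM (median 13.4) in Tn tumours (log2 fold change -0.46 ± 0.16 (SE), adjusted p = 0.0365). Its call was lost in 10 of 20 alternatives, among them leaving out WT 1, WT 2, WT 4, WT 5, Tn 1, Tn 3, Tn 4 or Tn 5. Adamts10, which promotes fibrillin-1 assembly, measured 10.3 ± 1.55 CPM in the WT and 13.2 ± 4.12 CPM in the Tn group and did not pass (adjusted p = 0.157). Adamts13, the protease of von Willebrand factor, was too low to be tested, and of its 127 counts 103 were in Tn 4.

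Among ADAMTS-like genes, Adamtsl3 had the largest difference of any member. It encodes a matrix glycoprotein and lies at 81984902 to 82263658 on the plus strand of chromosome 7 in GRCm39. Its levels were 70.4, 52.6, 66.4, 62.3, 54.2 and 33.4 CPM in WT tumours 1 to 6, from 4192 to 9094 counts per tumour. In Tn tumours 1 to 6 they were 0.0671, 0.292, 0.221, 1.07, 0.0800 and 0.208 CPM, from 10 to 149 counts per tumour. Each Tn tumour thus held a low but countable level, above the 3 counts taken as the limit of detection, and the highest was Tn 4. No option counted a read pair once, so these counts can exceed the number of pairs. The log2 fold change was -7.44 ± 0.64 (SE), which leaves 0.572% of the WT mean, and it was -8.53 without the 3 libraries.

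Genes beside Adamtsl3 did not share its size of change. Sh3gl3, 28.3 kb away on one side, had a log2 fold change of -0.03 ± 0.27 (SE, adjusted p = 0.940). Saxo2, 18.5 kb away on the other, had 0.44 ± 0.23 (SE, adjusted p = 0.158), and Efl1 beyond it had -0.06 ± 0.13 (SE, adjusted p = 0.732). Among the 8 nearest tested genes, Bnc1 fell (-0.60 ± 0.13 (SE), adjusted p = 0.00368) and Stard5 rose (0.72 ± 0.14 (SE), adjusted p = 0.00213).

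Because Adamtsl3 was the member closest to loss of signal, the sequence at its start is given, from the RefSeq promoter table (GRCm38.p6, plus strand, chr7:82335444-82335743, from 250 bases before to 50 after the start). Capitals mark every CG pair.
Adamtsl3 promoter: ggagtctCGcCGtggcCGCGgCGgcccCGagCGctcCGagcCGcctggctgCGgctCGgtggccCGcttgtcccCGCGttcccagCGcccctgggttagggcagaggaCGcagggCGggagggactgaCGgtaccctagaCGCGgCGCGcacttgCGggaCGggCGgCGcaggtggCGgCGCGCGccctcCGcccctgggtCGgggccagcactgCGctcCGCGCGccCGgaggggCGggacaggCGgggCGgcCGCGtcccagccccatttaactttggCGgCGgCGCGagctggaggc
It holds 46 CG pairs in 300 bases, more than 98.4% of the 32851 promoters in that table, whose median is 7, and 78.7% of its bases are G or C. Such a count was not particular to Adamtsl3 among the members. The promoters of Adamts14, with 44 CG pairs, and Adamts20, with 41, belong to genes that did not pass. Those of Adamts2 and Adamts3, with 41 each, belong to genes that fell. No methylation was measured in these tumours, and any part of the promoter sequence in the low level was not tested. The letters TGANTCA, with any base at N, are a pattern wider than the binding motif of AP-1 and read the same on both strands. They occur in 7.81% of all promoters of this length and not in this window of Adamtsl3.

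Adamtsl1, a secreted matrix protein also called punctin, measured 4.49, 8.28, 4.36, 3.57, 6.99 and 5.83 CPM in WT tumours 1 to 6 and 1.65, 2.49, 1.53, 1.84, 2.08 and 0.950 CPM in Tn tumours 1 to 6. The groups did not overlap, and the log2 fold change was -1.67 ± 0.26 (SE, adjusted p = 5.09e-04). Adamtsl4, a fibrillin-1 binding protein of the lens zonule, measured 7.94 ± 0.830 CPM in the WT and 10.1 ± 2.14 CPM in the Tn group (adjusted p = 0.0754). Adamtsl5 measured 11 ± 1.14 CPM and 9.19 ± 5.25 CPM (adjusted p = 0.521). Adamtsl2, which binds fibrillin-1 and the latent TGF-beta complex, measured 1.07 ± 0.468 CPM and 0.485 ± 0.704 CPM (adjusted p = 0.234), and Tn 3 alone was at 1.90 CPM, above every WT tumour. Adamtsl2 was called as lower by limma voom, and by edgeR without Tn 3. Its log2 fold change was -1.15 ± 0.73 (SE) with all tumours and -2.40 to -0.91 with single tumours left out.

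**Figure D3:**
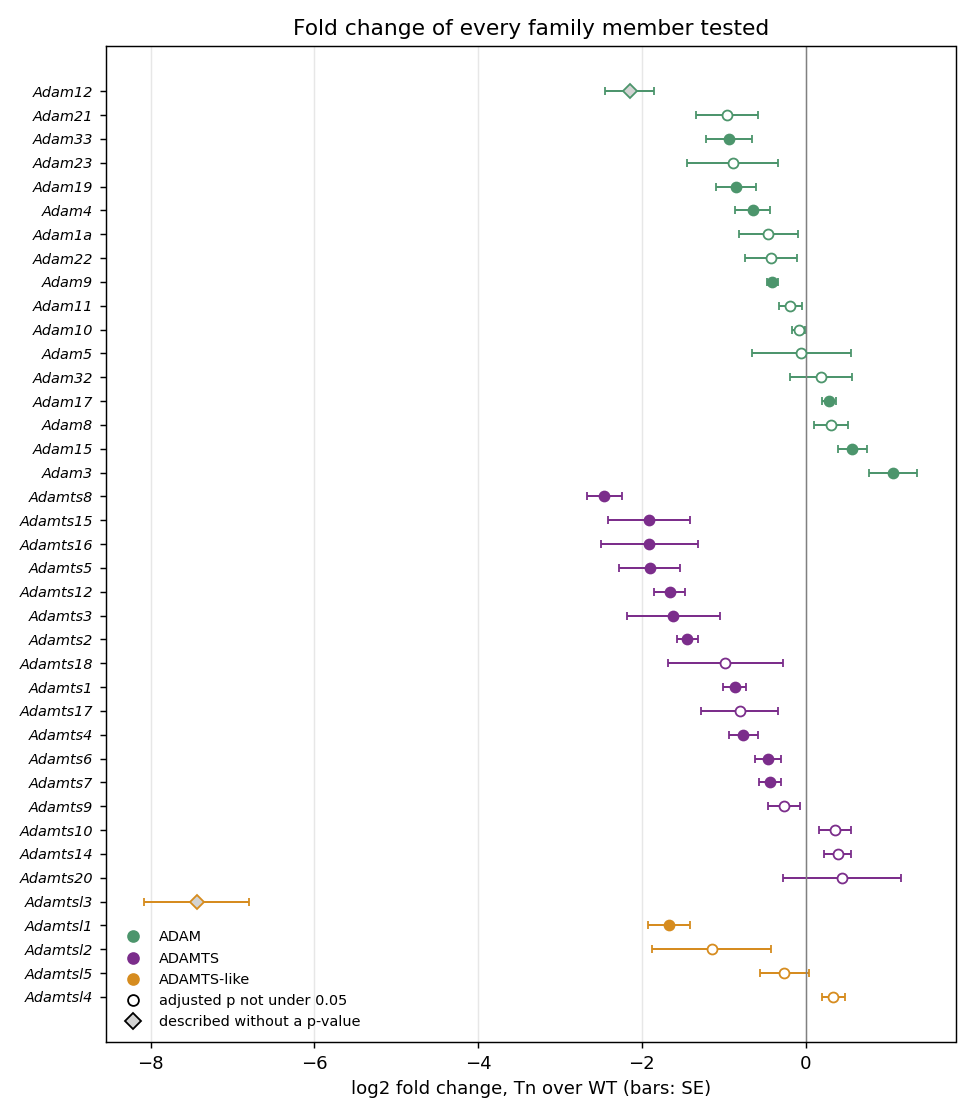
Log2 fold change of Tn over WT (horizontal axis, bars: SE) of the 39 members tested, by subfamily. Filled points passed the threshold, open points did not, and diamonds mark Adamtsl3 and Adam12, which are described without a p-value: 11 of 17 ADAMTS genes stand filled left of 0, and Adamtsl3, at -7.44, stands far from every other member.

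Levels of different members were set side by side only per kilobase of the gene length in the deposited table. In WT tumours Adam10 was the highest at 56.2 ± 5.73 CPM per kb (SD, n = 6), followed by Adam9 at 44.5 ± 2.93. Then came Adamts4 at 25.5 ± 4.23, Adam8 at 22.5 ± 6.07 and Adam17 at 20.1 ± 2.37, which did not differ beyond their spread. Adam12 (7.85 ± 1.44), Adamts8 (7.65 ± 2.14) and Adamtsl3 (7.30 ± 1.71) stood together at ranks 10 to 12, again within their spread. In Tn tumours Adam10 and Adam9 kept ranks 1 and 2, while Adam12 stood at rank 15 and Adamts8 at rank 19. Adamtsl3, at 0.0418 ± 0.0487 CPM per kb, lay among members too near the limit of detection to be ranked. Adam5, at 0.0448 ± 0.0430, and Adamts20, at 0.0285 ± 0.0442, were within its spread. Adamts4 moved from rank 3 to rank 6 and Adamts14 from rank 13 to rank 8.

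**Figure D4:**
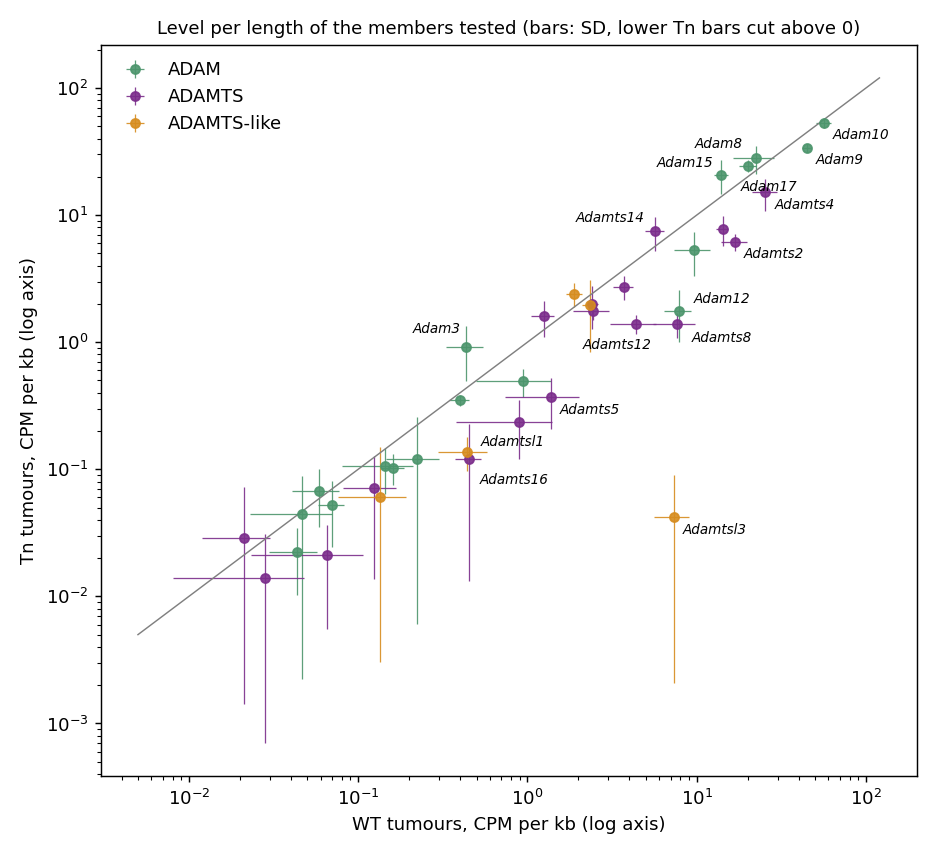
Mean CPM per kilobase in WT (horizontal log axis) and Tn tumours (vertical log axis) of the 39 members tested, with SD over 6 tumours as bars and the line of equal level in grey. Adam10 and Adam9 stand highest in both groups, and Adamtsl3 is the point far below the line (7.30 in WT, 0.0418 in Tn).

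Genes that act on these proteases, or that the proteases act on, were read from lists, with each value in parentheses a log2 fold change ± SE. Each count in a list stands beside 17.4% of all genes tested that fell and 19.5% that rose. In each list, and each ADAMTS role group, with 0 genes risen by edgeR, 0 rose by DESeq2 and by limma voom and 0 at an unadjusted p under 0.05, Adamts14 excepted. The tissue inhibitors of metalloproteinases bind many of these enzymes, and Timp3 is the main inhibitor of ADAM and ADAMTS proteases. Of 3 tested, 2 fell and 0 rose: Timp1 (-1.51 ± 0.22, adjusted p = 4.07e-04) from 337 ± 83.2 to 118 ± 36.3 CPM, and Timp3 (-1.08 ± 0.24, adjusted p = 0.00469) from 67.2 ± 16.7 to 31.7 ± 12 CPM. The median was -1.08, and Timp2 had a log2 fold change of -0.03 ± 0.10 (adjusted p = 0.816).

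Partners of the sheddases showed changes of both signs. Of 8 tested iRhoms, Frmd8 and TspanC8 tetraspanins, which carry ADAM17 and ADAM10 to the cell surface, 1 fell and 2 rose. These counts were near the shares of all genes, 17.4% and 19.5%. The median log2 fold change was 0.28 beside 0.01 over all genes. Rhbdf1 fell (-0.62 ± 0.11, adjusted p = 0.00147), and Frmd8 (0.32 ± 0.07, adjusted p = 0.00529) and Tspan5 (0.72 ± 0.23, adjusted p = 0.0271) rose. The number that rose was 1 to 4 with single tumours left out. Of 5 proprotein convertases, which cut the inhibitory prodomains off ADAM and ADAMTS enzymes, 3 fell and 1 rose (median -0.60), and without the 3 libraries that stood apart 0 rose. Pcsk6 (-2.49 ± 0.14, adjusted p = 5.43e-07) dropped from 15.5 ± 2.70 to 2.77 ± 0.307 CPM, Pcsk5 had a log2 fold change of -2.19 ± 0.25 (adjusted p = 8.76e-05), and Furin of -0.60 ± 0.09 (adjusted p = 5.59e-04). The enzymes that add fucose and glucose to thrombospondin repeats, Pofut2 (-0.02 ± 0.10, adjusted p = 0.894) and B3glct (-0.06 ± 0.09, adjusted p = 0.628), did not pass, nor at an unadjusted edgeR p under 0.05, by DESeq2 or by limma voom.

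Among matrix substrates, versican and most fibrillar procollagens fell in Tn tumours. Versican (Vcan), the proteoglycan cleaved by several ADAMTS enzymes, measured 63.7 ± 20.3 CPM in the WT and 12.9 ± 1.93 CPM in the Tn group (-2.30 ± 0.20, adjusted p = 1.63e-05), and it was the 1 of 2 proteoglycans tested that passed, neurocan (Ncan) having adjusted p = 0.0936. Of 10 fibrillar procollagens and C-proteinase genes, 7 fell and 0 rose (median -1.07), with Col5a2 at -1.75 ± 0.17 (adjusted p = 3.99e-05), Col1a2 at -1.87 ± 0.20 (adjusted p = 5.94e-05) and Col3a1 at -2.02 ± 0.22 (adjusted p = 7.75e-05). Col1a1 and Col1a2 also stand in the fibroblast marker list. Of 8 fibrillins and fibrillin-binding proteins, 2 fell and 3 rose (median 0.66). Fbn1 (-1.95 ± 0.18, adjusted p = 3.12e-05) and Fbn2 (-2.07 ± 0.38, adjusted p = 0.00145) fell, while Ltbp1, a latent TGF-beta binding protein, rose (0.90 ± 0.11, adjusted p = 1.02e-04). The number that rose ranged from 2 to 5 as single tumours were left out, and it was 4 without the 3 libraries.

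Of 17 membrane proteins known to be shed by ADAM10 or ADAM17, 3 fell, 4 rose and 10 did not pass, with a median log2 fold change of 0.01. These counts were near the shares of all genes tested, 17.4% that fell and 19.5% that rose. Without the 3 libraries, 2 of the 17 fell and 2 rose, beside 14.2% and 16.9% of all genes. Cx3cl1, the chemokine fractalkine, rose (1.45 ± 0.24, adjusted p = 8.86e-04) from 93.0 ± 26.1 to 255 ± 86.7 CPM. The EGF receptor ligands Tgfa (-0.72 ± 0.14, adjusted p = 0.00231) and Ereg (-1.39 ± 0.32, adjusted p = 0.00518) fell. RNA levels give no measure of shedding itself.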

How the data were processed

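RNA of 6 WT and 6 Tn whole tumours was profiled by stranded poly(A) RNA sequencing. Per the submitters' processing notes, trimming was by fastp 0.23, alignment to GRCm39 by STAR 2.7.11a, and counting by featureCounts (Subread 2.1.1). The authors' table holds, per the file headers, raw counts over the exons of each gene, with no strand setting and no option that counts a read pair once. Between 64.9% and 71.3% of counts from 1 to 50 were even. Reads over 2 genes are not resolved, and close paralogs are uncertain. The deposited gene length column is in bases and gave the levels per kilobase.

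Groups were compared with edgeR 4.0.16 in R 4.3.3 (TMM scaling, filterByExpr, robust quasi-likelihood test, two-sided test, Benjamini-Hochberg adjustment over 19255 genes, threshold 0.05). Standard errors were taken from the log2 fold change and the F statistic (its root as divisor). In counts simulated from these tumours over 19255 genes, the test recovered 50% of genes changed 1.5-fold, 77.3% at 2-fold and 92% at 4-fold. Only genes with a mean of at least 1 CPM were changed, and far fewer genes than were called in the tumours. These shares therefore do not cover members under 1 CPM. No libraries within a group agreed within sampling noise (lowest chi-square over its degrees of freedom 41.4).

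The members and the gene lists were chosen with earlier results of these data known. Genes named are C1galt1c1, Adamtsl3, Adam12, Adam10, Adam17, Adam6a and Adam6b, in each role group the member with the highest level per kilobase and the members past the threshold, and up to 3 members per pathway list with the smallest p. Other members were chosen after their values were seen. Symbols were matched for 56630 of 57186 identifiers from a GRCm39 annotation of another release than the authors used. That annotation also supplied gene types, coding sequences and the positions of the zinc sites. Gene positions, distances between genes and shared exon bases come from the deposited table. For 23 of the 58 members the annotation gives the same position as the deposited table. Promoter sequences are from RefSeq (GRCm38.p6). Protein sequences were not used here.

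Alternatives were RLE and upper-quartile scaling, CPM by library total, DESeq2 1.42.0, limma 3.58.1 voom with quality weights, no filter, a filter at a mean CPM of 1, leaving out each tumour, a block for the replicate number and, chosen after seeing the data, the removal of 3 libraries. The labels name 1 batch. The library names number all Tn tumours before all WT tumours, and an effect of that order and the group cannot be told apart.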

Additional observations from a re-analysis of the deposited data

Results flagged for a closer look

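In 12 of 82 groups of 6 tumours tested, 1 tumour lay far from the other 5 by Dixon's test at the 95% level. That level holds for independent, normally distributed values. Here CPM were used without a log, and the groups share the same 12 tumours. The number flagged therefore cannot be compared with chance. In all 12 the flagged tumour was on the high side. Tn 4 was the high tumour in 6 of the 12. It held 7.08 CPM of Adam23, where the other 5 Tn tumours held 0.544 to 2.07 CPM, and 2.40 CPM of Adam11, where they held 1.86 to 1.94 CPM. It also held 1.07 CPM of Adamts20 (others 0.0403 to 0.134 CPM), 1.38 CPM of Adamts17 (others 0.123 to 0.592 CPM) and 0.742 CPM of Adamts13 (others at or under 0.0223 CPM). Adamtsl3, which was low in all Tn tumours, was at 1.07 CPM in Tn 4 and at 0.0671 to 0.292 CPM in the others. Tn 4 also had the highest summed B cell (579 CPM) and T cell (363 CPM) markers of all tumours, and their part in these values was not tested.

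The remaining 6 were spread over 5 tumours. WT 2 was high for Adam19 (100.5 CPM, others 54.1 to 68 CPM) and for Adamts7 (29.6 CPM, others 20.5 to 23.4 CPM), and it had the highest summed fibroblast markers of the 12 tumours, at 15091 CPM. Tn 5 was high for Adamts1 (63.1 CPM, others 31.9 to 41.9 CPM). Tn 3 was high for Adamtsl2 (1.90 CPM, others 0.0594 to 0.375 CPM), Tn 1 for Adamts18 (0.490 CPM, others 0.0445 to 0.123 CPM) and WT 1 for Adam28 (0.181 CPM, others at or under 0.0643 CPM).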

How the results depend on the processing

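The number of members that fell stayed between 14 and 21 and the number that rose between 2 and 5 over all settings run, Adamtsl3 and Adam12 included here among those that fell. Of the 21 members called, 21 were called under RLE scaling, DESeq2 and voom. Upper-quartile scaling, with 3094 genes higher and 3844 lower among all genes, lost Adam17, and running without a filter lost Adam4, Adamts16, Adamts3 and Adamts6. With each tumour left out in turn, members that rose ranged from 2 to 5 (5 without Tn 3) and pathway list genes that rose from 6 to 14 (6 without WT 3 or WT 4), against 10 with all tumours. Members that did not pass changed direction as follows, and the cause was not tested. The log2 fold change of Adamts20 was -0.52 by voom, -0.37 with the replicate block, -0.98 without Tn 4 and -0.99 without the 3 libraries. With single tumours left out, it ranged from -0.98 to 0.67 for Adamts20, from -0.68 to 0.17 for Adam5 (above 0 without WT 2, WT 4, WT 6, Tn 1, Tn 5 or Tn 6) and from -0.0090 (without Tn 5) to 0.40 for Adam32. Same-numbered tumours did not deviate together, with correlations of -0.12 to 0.16, 2 of 6 over 0.1, and 0 of 6 tumours correlating best with their own number. With the replicate number as a block, 2998 genes rose and 2878 fell, with 3 and 14 members, and Adam33, Adam4, Adamts3 and Adamts6 were lost. At this depth the limit that 3 counts allow is 0.0191 to 0.0264 CPM. Members near it (Adam5, Adam21, Adam32, Adamts3, Adamts18, Adamts20 and, in Tn tumours, Adamtsl3) cannot be ranked. Adamts3, a member called as fallen, held 0.0320 to 0.267 CPM in Tn tumours.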
